A study of Mus musculus with 2 samples.

Results

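The miR-17-92 cluster is a row of 6 miRNA hairpins cut from 1 transcript on mouse chromosome 14, and it was described here in the intestine of newborn mice. Its members were the 6 genes that the annotation calls Mir17, Mir18, Mir19a, Mir20a, Mir19b-1 and Mir92-1, taken by name from 1973 miRNA genes. The samples were intestines of 2 B6NCrl pups at postnatal day 0, 1 from each pup, and both pups came from 1 pregnant female. Each gave 1 small RNA library (RNA size range below 30, with no unit given). No treatment or genetic change is named in the labels, the sex was not collected, and no gut segment is given. There is 1 group, so the cluster's genes were compared with each other and with their relatives inside each library, and the pups were compared only as 2 libraries.

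MiRNAs are short RNAs that guide Argonaute proteins to messenger RNAs, mainly by pairing through their seed, bases 2 to 8 counted from the 5′ end. The miR-17-92 transcript is switched on by MYC and E2F factors in proliferating cells, and its miRNAs are known to repress the cell cycle inhibitor Cdkn1a and the pro-apoptotic gene Bcl2l11. The cluster has relatives of the same descent, the miR-106a-363 cluster on chromosome X and the miR-106b-25 cluster in an intron of Mcm7 on chromosome 5. In the gut, dividing cells lie in the epithelium, in the mesenchyme and among blood cells. In whole tissue, fewer cells of a type and less RNA per cell cannot be told apart.

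All 6 members lie on the plus strand within 1 exon, exon 2 (115043271 to 115046727) of the noncoding host gene Mir17hg, which spans 115042879 to 115046727 on chromosome 14 (GRCm38, GENCODE M21). Mir17 lies at 115043671 to 115043754, Mir18 at 115043851 to 115043946 and Mir19a at 115044000 to 115044081. Mir20a follows at 115044157 to 115044263, Mir19b-1 at 115044305 to 115044391 and Mir92-1 at 115044427 to 115044506. The starts of the first and the last hairpin are 756 bases apart. The guide arms, the strands known as the functional ones, carry 4 seeds, shown here in capitals because the seed sets the target group (RefSeq, GRCm38.p6, all on the plus strand):

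miR-17-5p of Mir17: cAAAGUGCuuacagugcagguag

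miR-20a-5p of Mir20a: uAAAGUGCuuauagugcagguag

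miR-18a-5p of Mir18: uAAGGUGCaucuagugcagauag

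miR-19a-3p of Mir19a: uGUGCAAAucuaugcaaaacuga

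miR-19b-3p of Mir19b-1: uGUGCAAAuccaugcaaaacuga

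miR-92a-3p of Mir92-1: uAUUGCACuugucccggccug

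Mir17 and Mir20a share the seed AAAGUGC and differ at C1U and C12U, the base of Mir17 first and positions counted from 1 at the 5′ end. Mir18 has the seed AAGGUGC, which differs from that of Mir17 at A4G alone. Mir19a and Mir19b-1 share the seed GUGCAAA and differ at U11C. Mir92-1 is alone in the cluster with AUUGCAC. Each count below is a gene total over both arms of its hairpin, so the guide and the passenger arm are not told apart.

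Sequencing gave 6375694 reads for pup 1 and 8373497 for pup 2, and 3567658 and 4683939 of these fell on a miRNA gene in its annotated direction. Levels are given as CPM, a gene's counts per 1000000 of those counts, and every ± is the SD over the 2 pups. Reads that mapped to several places were 30.3% and 29.8% of reads and were counted for no gene. Genes with 10 or more counts in both libraries, 314 of 1973, are called detected below. The fixed gut lists were high: 10 of 10 epithelial genes were detected with 32.1% of counts, both smooth muscle genes with 16.6% and the endothelial gene with 5.22%. Markers of other tissues were low, with liver Mir122 at 20.6 CPM, 5 neuronal genes at 1.10 CPM in sum (4 of them at 0) and 4 striated muscle genes at 5.30 CPM in sum (3 of them at 0). Several genes of the last 2 lists have near-identical copies, so their 0 counts do not show absence. Mir9-1 and Mir1a-2, also of these lists, were not found by name among the counted genes.

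The cluster held 1.54% ± 0.0924 of all miRNA counts in newborn intestine, 52442 counts in pup 1 and 74968 in pup 2. The exact binomial 95% intervals were 1.46% to 1.48% in pup 1 and 1.59% to 1.61% in pup 2, which hold counting error and nothing else, as PCR copies were not marked. All 6 members were detected, and none had a read on the opposite strand, against 24 of 314 detected genes that had some (7.64%). Mir17 alone gave 49.3% ± 0.666 of the cluster's counts, and Mir17 with Mir20a, the pair of 1 seed, gave 78.2% ± 1.91. The Mir19 genes together gave 0.208% ± 0.00765. Reads of exactly miR-92a-3p or miR-19b-3p match 2 hairpins each and were counted for no gene, as described below. The cluster's counts are thus a lower limit, and the shares of Mir17 and Mir20a in them may be too high. Blood cells are also known to express the cluster. The erythroid list summed to 101 CPM in pup 1 and 148 CPM in pup 2 (2 of 3 genes detected). The leukocyte list summed to 1256 and 1503 CPM (5 of 5 detected, without Mir142, which was not found by name among the counted genes). Both sums were higher in pup 2, as the cluster's share was. The epithelial list was higher there too (297838 and 344959 CPM), while the smooth muscle and endothelial lists were lower. Within the blood lists Mir144 and Mir150 were slightly lower in pup 2 with the scaling described below (log2 ratios -0.12 and -0.03), against 0.91 for Mir451a. The part of blood cells in the cluster's share was not tested.

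Mir17, the first hairpin of the row, had 25600 and 37302 counts in pups 1 and 2, or 7176 and 7964 CPM. Mir20a, its seed mate, had 14708 and 22343 counts, or 4123 and 4770 CPM. Both genes were somewhat higher in pup 2, and the range of one gene over the pups did not overlap that of the other. Mir18, whose mature RNA is miR-18a, had 8123 and 10228 counts, or 2277 and 2184 CPM. Mir92-1, the last hairpin of the row, had 3899 and 4943 counts, or 1093 and 1055 CPM. These middle levels were close between the pups.

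The genes of the miR-19 seed had far fewer counts. Mir19a had 94 counts in pup 1 and 120 in pup 2, or 26.3 and 25.6 CPM. Mir19b-1 had 18 and 32 counts, or 5.05 and 6.83 CPM. The Poisson 95% intervals of Mir19b-1 were 2.99 to 7.97 CPM in pup 1 and 4.67 to 9.65 CPM in pup 2, above the floor of 3 counts (0.841 and 0.640 CPM). These intervals hold counting error alone, which for Mir19b-1 spans more than the difference between the pups. Reads of exactly miR-19b-3p also match the hairpin of Mir19b-2 and were counted for no gene. The level of Mir19b-1 is therefore a lower limit.

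**Figure D1:**
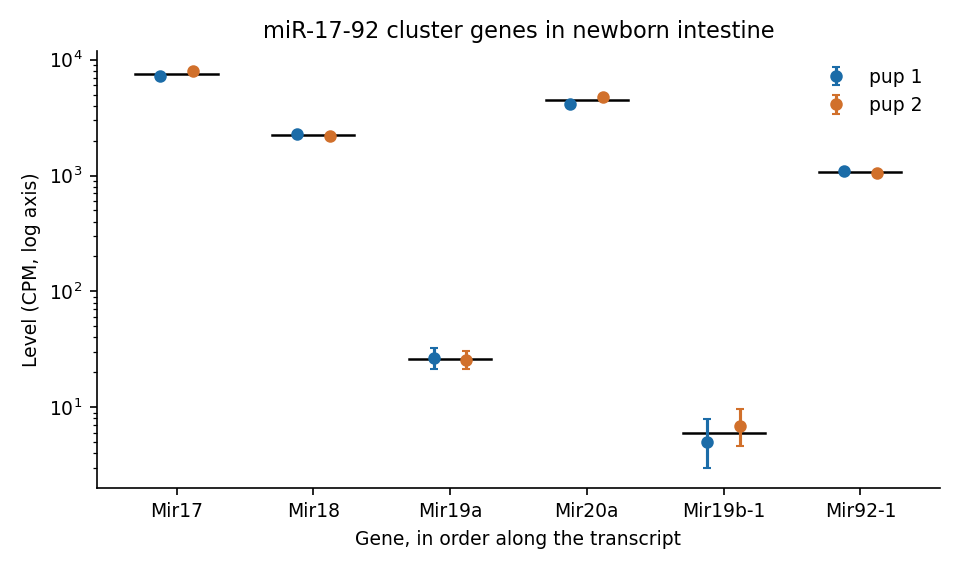
Level of each cluster gene in CPM on a log axis, in order along the transcript; points are pups with Poisson 95% intervals and lines are means over the 2 pups. Mir17, Mir18, Mir20a and Mir92-1 lie between 1055 and 7964 CPM, while Mir19a and Mir19b-1 lie between 5.05 and 26.3 CPM.

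From high to low the order was Mir17, Mir20a, Mir18, Mir92-1, Mir19a and Mir19b-1, and no 2 neighbours in this order overlapped between the pups. The steps were 1.70-fold, 1.99-fold and 2.08-fold down to Mir92-1, then 41.3-fold to Mir19a and 4.38-fold to Mir19b-1. This order is not the order along the transcript, in which Mir19a and Mir19b-1 flank Mir20a on either side. Each read is 1 small RNA of similar size, so CPM was not divided by length. Dividing it by hairpin length (80 to 107 bases) gave the same order. The counts of Mir92-1 and Mir19b-1 are lower limits, as their guide arms have copies, so their places in the order are not settled.

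Among all genes Mir17 ranked 27 by mean CPM, Mir20a 34, Mir18 54, Mir92-1 77, Mir19a 232 and Mir19b-1 280. The detected genes next above and below each member all overlapped with it between the pups, 12 of 12 neighbours. Mir17 stood between Mir322 (7971 ± 476 CPM) and Mir31 (7427 ± 420). Mir20a stood between Mir145a (4489 ± 85.4), a smooth muscle miRNA, and Mir30d (4437 ± 424). Mir18 lay next to Mirlet7f-2 (2273 ± 56.7) and Mir425 (2146 ± 374). Mir92-1 lay next to Mir296 (1077 ± 18.9) and Mir196b, which was itself at 2057 CPM in pup 1 and 66.2 in pup 2. Mir19a lay between Mir301b and Mir6236, and Mir19b-1 between Mir1298 and Mir218-1. With 2 libraries this likeness is one of level only.

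Within each library the cluster's genes were compared in pairs with a quasi-likelihood fit in edgeR that held the pup as a block. The fit covered 324 pairs, made of all detected miRNA genes on the same strand with starts within 10 kb and of fixed pairs of relatives, and p-values were adjusted over all of them. All 15 pairs within the cluster differed (adjusted p below the threshold of 0.05), but so did 303 of the 324 pairs, 93.5%, so unequal counts among neighbours were the usual state. The median ratio was 41.3-fold in the cluster (5.37 on the log2 scale), beside 5.62-fold (2.49) over 298 pairs of other clusters. That median is the ratio of Mir92-1 over Mir19a, and the pairs without a Mir19 gene lay between 1.70-fold and 7.04-fold. Pairs share genes, and each of the 8 pairs that sets a Mir19 gene against another member holds the large step, so these 15 ratios are not independent of each other.

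Mir17 exceeded Mir19b-1 by a fitted log2 ratio of 10.30, about 1259-fold (adjusted p = 9.29e-07, edgeR), the widest ratio of the 15. The counted fold was 1422 in pup 1 and 1166 in pup 2. Mir20a exceeded Mir19b-1, its neighbour 148 bases downstream, 741-fold (log2 9.53). Mir92-1, which starts 122 bases after Mir19b-1, exceeded it 177-fold. Hairpins that lie side by side in 1 exon thus differed by over 100-fold in counts on both sides of Mir19b-1. The counts of Mir19b-1 lack reads that also match Mir19b-2, so the ratios of Mir17 and Mir20a over it may be too high. The ratio of Mir92-1 over it is uncertain, since Mir92-1 has a copy of its guide arm too.

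Mir18 exceeded Mir19a, 149 bases downstream, by 6.42 on the log2 scale with an SD over the pups of 0.014, and Mir19a over Mir20a had a log2 ratio of -7.42. Mir92-1 exceeded Mir19a 41.3-fold. Without the Mir19 genes the ratios were small. Mir17 was 1.70-fold above Mir20a (log2 0.77 ± 0.04, adjusted p = 0.000779, edgeR), 3.39-fold above Mir18 and 7.04-fold above Mir92-1. Mir20a was 1.99-fold above Mir18 (adjusted p = 0.000503, edgeR) and 4.13-fold above Mir92-1. Mir18 was 2.08-fold above Mir92-1, with a log2 ratio of 1.06 in pup 1 and 1.05 in pup 2. Every one of the 15 ratios had the same sign in both pups, as had 292 of 298 pairs of other clusters. Such ratios also hold any difference in how well each miRNA is captured in a library, which both pups share.

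**Figure D2:**
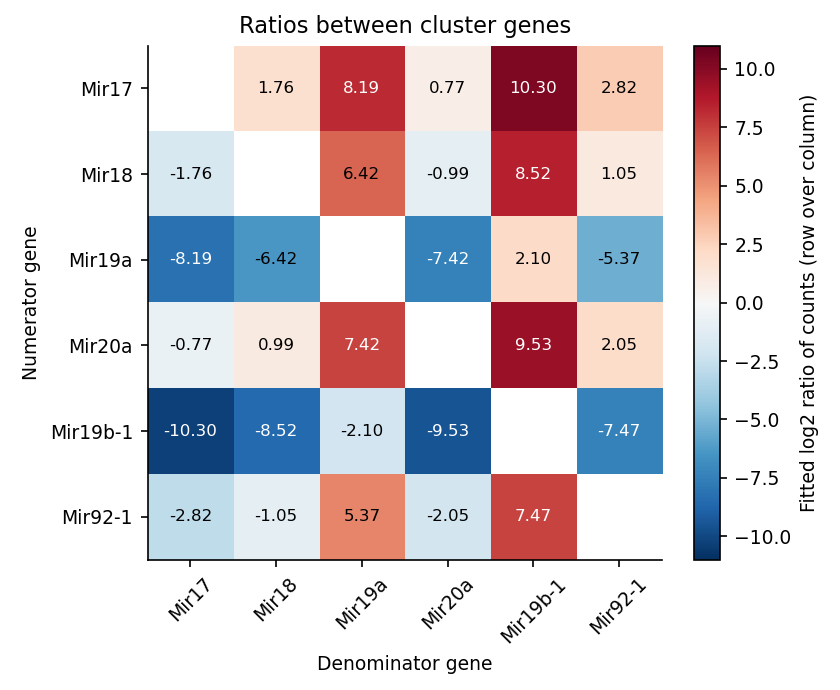
Fitted log2 ratio of counts between each pair of cluster genes, row gene over column gene, both in order along the transcript. The rows of Mir19a and Mir19b-1 are blue against every gene of another seed, and the row of Mir19b-1 is blue against Mir19a too. The ratios between genes other than these are at most 2.82 in size.

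The range of levels in the cluster was set beside that of the other clusters, runs of at least 3 detected genes with neighbours within 10 kb. Of 12 such clusters it had the widest range, 1275-fold between the means of Mir17 and Mir19b-1 (log2 10.32), against a median log2 range of 6.29 over the 12. The Mir322 to Mir450b run followed with 869-fold, and the relatives Mir106a to Mir363 and Mir106b to Mir25 had 87.2-fold and 7.66-fold. The Mir183 to Mir182 run was narrowest, at 2.61-fold. Its place rests on Mir19b-1: without that gene, Mir17 over Mir19a gave 292-fold, below the runs of Mir322 and of Mir379 to Mir3072 (674-fold). These ranges are a description, and clusters with more genes can show wider ones.

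**Figure D3:**
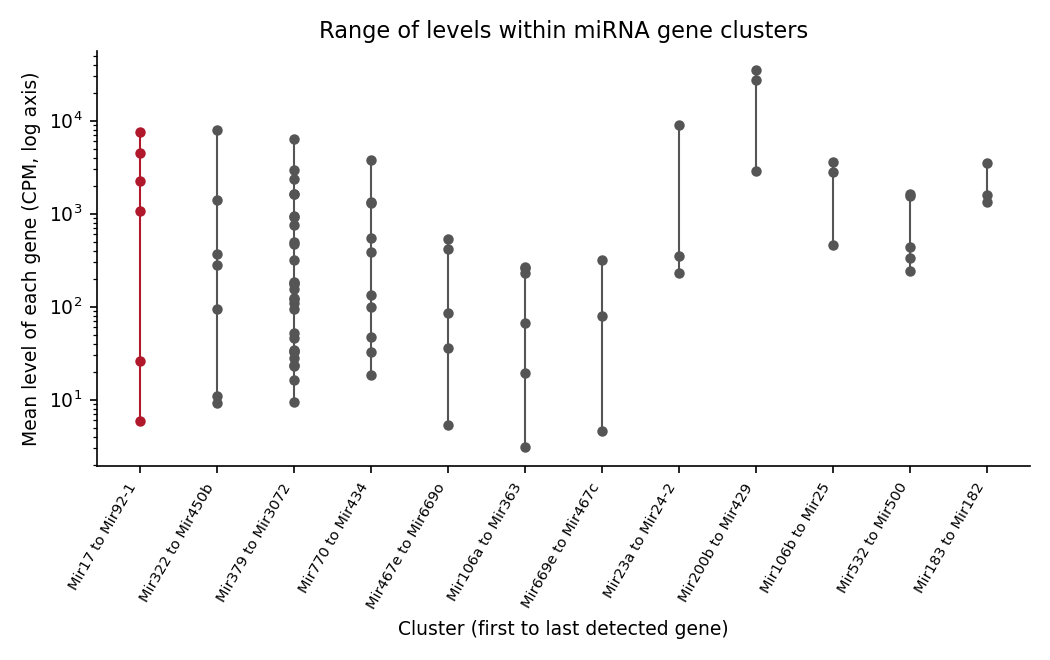
Mean level over the pups of each detected gene (CPM, log axis) in 12 clusters of at least 3 detected genes, ordered by range, with the miR-17-92 cluster in red. The red line spans 5.94 to 7570 CPM and has a gap between 26.0 and 1074 CPM.

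How far each hairpin can be told from its relatives bears on these counts, because a read with several matching places in the genome was given to no gene. All 6 members have a hairpin in the RefSeq table of 1005 mouse hairpins. The 3 hairpins below are those of the low Mir19 genes and of Mir92-1, and capitals mark the longest stretch shared with another hairpin of that table:

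hairpin of Mir19a: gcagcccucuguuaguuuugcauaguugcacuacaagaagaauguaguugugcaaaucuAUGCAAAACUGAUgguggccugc

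hairpin of Mir19b-1: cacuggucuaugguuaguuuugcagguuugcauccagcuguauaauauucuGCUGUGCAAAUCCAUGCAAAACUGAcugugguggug

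hairpin of Mir92-1: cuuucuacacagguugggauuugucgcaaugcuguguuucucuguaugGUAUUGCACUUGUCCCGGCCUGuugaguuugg

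Mir19b-1 shares a run of 25 bases with Mir19b-2 on chromosome X, which contains all of miR-19b-3p, and 6 of its 68 windows of 20 bases occur in another hairpin. Mir92-1 shares a run of 22 bases with Mir92-2, which contains all of miR-92a-3p, and 3 of its 61 windows occur elsewhere. A read of exactly either guide arm therefore matches 2 hairpins, and the counts of both genes are lower limits. Mir19a shares at most 13 bases with another hairpin, and its guide arm is in no other hairpin and, in GENCODE transcripts, only in Mir19a and Mir17hg. The guide arm of Mir19a is 1 substitution (U11C) away from miR-19b-3p, and whether reads were lost to that likeness was not tested. Mir17 shares at most 13 bases, Mir18 17 and Mir20a 17, and none of their windows of 20 bases occur in another hairpin.

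By copy state, the members with an identical guide arm elsewhere were Mir92-1, at 1074 ± 26.6 CPM, and Mir19b-1, the lowest, at 5.94 ± 1.26. Those with none were Mir17, Mir20a and Mir18, the 3 highest, and Mir19a, at 26.0 ± 0.515. The part of the copies in these levels was not tested. The guide arms of Mir19a and Mir19b-1 had a GC content of 34.8% and 39.1%, that of Mir20a 39.1%, Mir18 43.5%, Mir17 47.8% and Mir92-1 57.1%. The predicted folding energies of the hairpins (RNAfold) were -38.7 kcal/mol for Mir19a, -37.8 for Mir19b-1, -38.6 for Mir20a, -36.7 for Mir17, -34.0 for Mir92-1 and -29.2 for Mir18.

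Each seed of the cluster is carried by other genes too, and their guide arms are shown because reads of near-identical arms are compared next (RefSeq, GRCm38.p6, minus strand, seeds in capitals):

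miR-106a-5p of Mir106a: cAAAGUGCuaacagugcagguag

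miR-20b-5p of Mir20b: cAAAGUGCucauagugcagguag

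miR-93-5p of Mir93: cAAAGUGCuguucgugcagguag

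miR-106b-5p of Mir106b: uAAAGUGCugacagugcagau

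miR-18b-5p of Mir18b: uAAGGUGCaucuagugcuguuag

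miR-25-3p of Mir25: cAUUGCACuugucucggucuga

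miR-363-3p of Mir363: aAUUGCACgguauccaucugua

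Mir106a differs from Mir17 at U10A alone, Mir20b from Mir20a at U1C and U10C, and Mir18b from Mir18 at A18U and A20U. Of the 7 genes of the AAAGUGC seed in the RefSeq table, 6 were detected and together held 1.89% ± 0.115 of counts. Mir17 and Mir20a gave 63.5% ± 1.51 of these, and the chromosome 5 genes Mir93 (3553 ± 302 CPM) and Mir106b (2815 ± 235) gave most of the rest. Mir6383, the seventh gene with this seed, had 0 counts in both pups, which allows up to 0.841 and 0.640 CPM. For the seed of Mir18 the cluster gave 99.1% ± 0.105 of counts, with Mir18b at 17.9 and 20.5 CPM.

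For the Mir19 seed the cluster gave 91.2% ± 1.27 of only 124 and 165 counts, and the third gene, Mir19b-2, had 12 and 13. A read of exactly miR-19b-3p matches both Mir19b genes, so the counts of these are lower limits and the level of this seed is uncertain. For the Mir92 seed, 6 of 7 genes were detected, and Mir92-1 gave 52.0% ± 0.434 of their counts. Reads of exactly miR-92a-3p are missing from Mir92-1 and Mir92-2, so this share is uncertain. Mir25 had 464 ± 14.3 CPM, Mir363 229 ± 8.09, Mir32 204 ± 17.5, Mir92-2 66.0 ± 0.278 and Mir92b 31.1 ± 1.66. Mir367, a miRNA of pluripotent cells, had 0 counts in both pups.

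**Figure D4:**
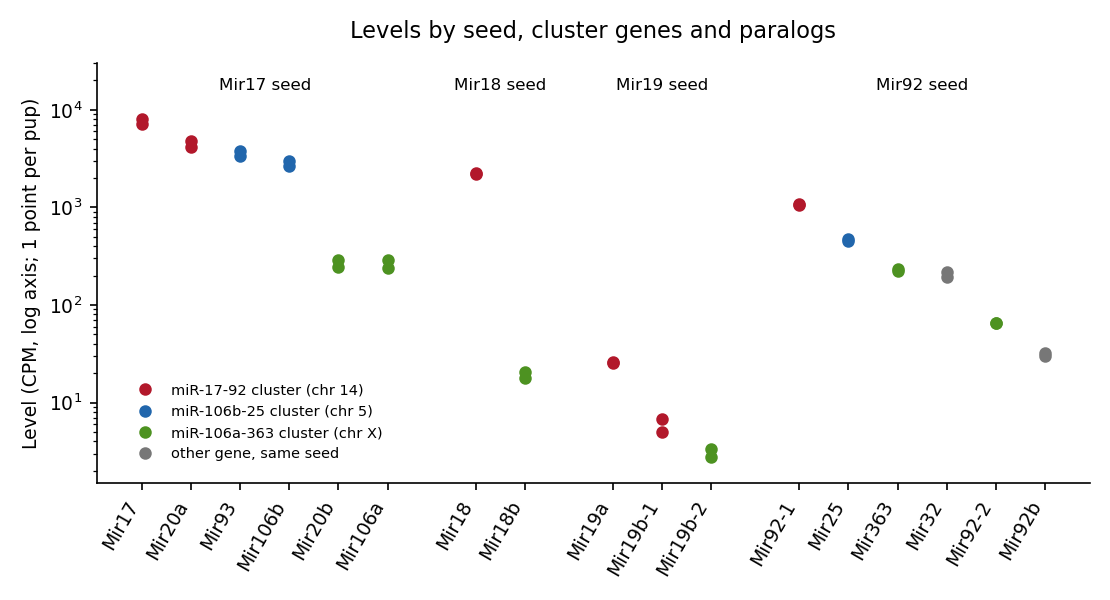
Levels in CPM on a log axis of the genes detected for each seed of the cluster, 1 point per pup, coloured by cluster. In each of the 4 seed groups a gene of the miR-17-92 cluster (red) is highest, at 7570, 2230, 26.0 and 1074 CPM on average.

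Compared in the same edgeR fit, 10 of 11 fixed pairs of homologs differed, near the 93.5% of all pairs that differed in either direction. That share says nothing of direction. The cluster's gene was the higher one in 11 of 11 pairs, in both pups, and some of these pairs share a gene. The chromosome X copies were far lower. Mir17 exceeded Mir106a 28.8-fold (log2 4.85 ± 0.07), Mir20a exceeded Mir20b 16.6-fold (4.06 ± 0.04), and Mir92-1 exceeded Mir92-2 16.3-fold (4.02 ± 0.03). The widest was Mir18 over Mir18b, 115-fold (6.85), from 64 and 96 counts of Mir18b. Since the guide arms of Mir92-1 and Mir92-2 are identical, the split of that pair is uncertain.

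The chromosome 5 relatives were close to the cluster. Mir17 was 2.69-fold above Mir106b and 2.13-fold above Mir93, and Mir92-1 was 2.32-fold above Mir25 (log2 1.21 ± 0.01, adjusted p = 8.08e-05, edgeR). Mir20a was 1.25-fold above Mir93 (adjusted p = 0.0293, edgeR), a call that ended without the pup block (adjusted p = 0.0776) and with counts per base of hairpin (log2 ratio 0.04, adjusted p = 0.721). Mir92-1 was 4.70-fold above Mir363. Mir19a was 8.47-fold above Mir19b-2. Mir19b-1 over Mir19b-2 did not pass (log2 0.99, adjusted p = 0.0503, edgeR). Its ratio was 0.59 in pup 1 and 1.30 in pup 2, from at most 32 counts, and it passed in 4 of the alternatives given in the closing section.

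Between the libraries the members differed in their ratios, by amounts also seen among pairs of other clusters, some of which have few counts. The counts of each detected gene were split between the pups in a 2-sided exact binomial test, with the split set by library sizes after TMM scaling and p-values adjusted over 314 genes. This compares the libraries of 2 animals, with no replicate of either. Mir17 was 1.14-fold higher in pup 2 (log2 0.19, exact 95% interval 0.17 to 0.22, adjusted p = 1.99e-60), and Mir20a 1.19-fold (0.25, interval 0.22 to 0.28, exact adjusted p = 7.32e-61). These 2 of 6 members were called higher in pup 2, beside 21.3% of detected genes, and 0 were called lower. The other 4 did not pass: Mir18 had a log2 ratio of -0.02 (-0.06 to 0.02), Mir92-1 -0.01 (-0.07 to 0.05), Mir19a 0.00 (-0.40 to 0.41) and Mir19b-1 0.48 (-0.40 to 1.40).

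The intervals of Mir18 and Mir92-1, which hold counting error alone, did not overlap those of Mir17 and Mir20a, although all 4 come from 1 exon. The log2 ratios of Mir17 or Mir20a over Mir18 or Mir92-1 had SDs over the pups of 0.142 to 0.192. The median SD was 0.133 over 298 pairs of other clusters, with a highest value of 0.726. Those pairs include genes with few counts, whose ratios hold more counting error, so these SDs are not a like comparison. Among well-counted genes of another cluster, the neighbours Mir93 and Mir106b differed too (log2 ratios of pup 2 over pup 1 of 0.22 and -0.13). How often well-counted pairs of other clusters differ by as much was not tested. The median log2 ratio of the members was 0.10 beside 0.00 over all detected genes, and the median absolute ratio 0.11 beside 0.18. Mir17 stood at percentile 77.1 of the detected genes and Mir20a at 82.2, so both lay inside the bulk of the differences between these libraries. That bulk includes genes with few counts, whose ratios hold more counting error. The widest ratios of all were those of Mir196b (-4.91) and Mir196a-2 (-3.31). No gut segment is given, and whether the 2 intestines cover the same regions was not tested. With total-count scaling, which moved the median of all genes to -0.04, Mir18 was called lower in pup 2 (log2 -0.06, exact adjusted p = 0.0138). For Mir19a and Mir19b-1 the depth could not show a difference of the size seen in Mir17.

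Among the relatives, genes of 1 cluster differed in their calls. Of the other genes of the Mir17 seed, Mir106a (log2 0.30), Mir20b (0.31) and Mir93 (0.22) were called higher in pup 2, while Mir106b, which lies beside Mir93, was called lower (-0.13, interval -0.17 to -0.09). Of the 5 other detected genes with the Mir92 seed, none was called, with log2 ratios from -0.13 for Mir32 to 0.03 for Mir92-2. Mir18b (0.24, interval -0.24 to 0.71) and Mir19b-2 (-0.23, interval -1.48 to 1.03) rested on few counts and were not called.

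**Figure D5:**
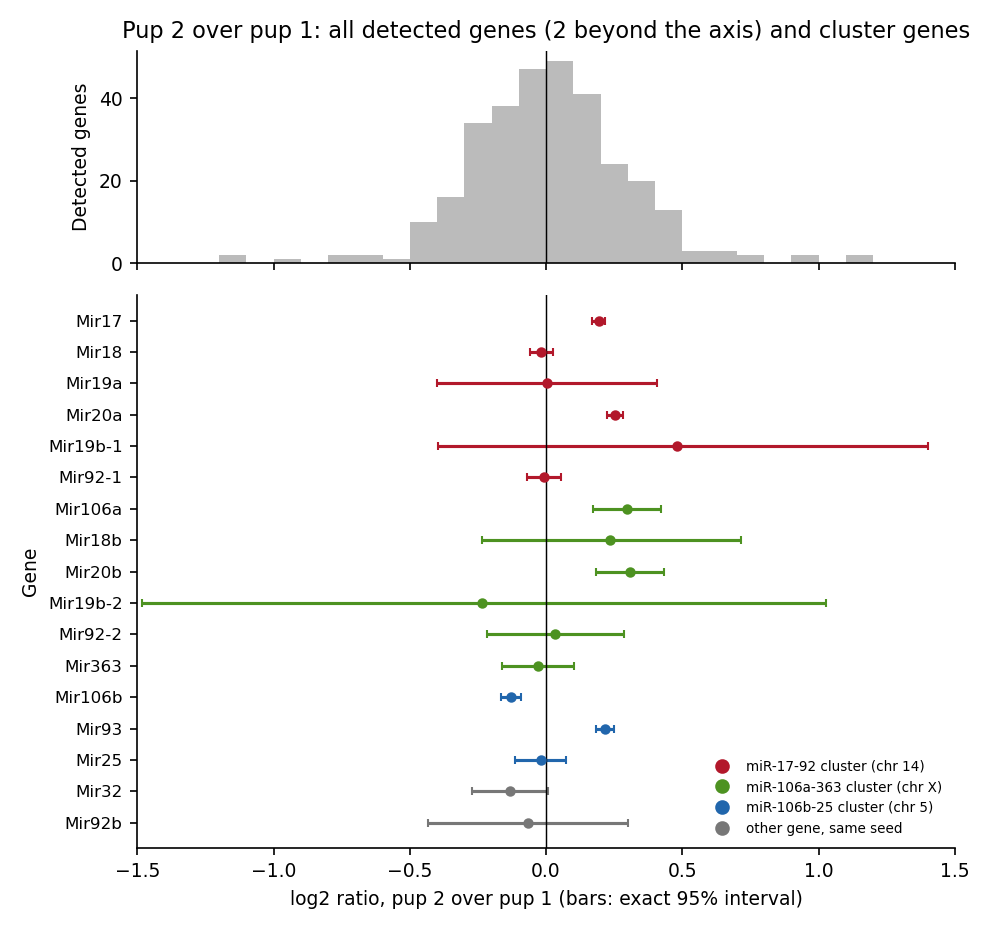
Log2 ratio of pup 2 over pup 1. Above is a histogram of the 314 detected genes (2 of them, Mir196b and Mir196a-2, beyond the axis). Below is each cluster gene and relative with its exact binomial 95% interval, coloured by cluster. Mir17 and Mir20a lie at 0.19 and 0.25 with narrow intervals above 0, Mir18 and Mir92-1 lie at 0, and the Mir19 genes have wide intervals.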

How the data were processed

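The authors deposited unnormalized counts of reads for each miRNA gene, on mm10 with GENCODE M4, per the file headers. The aligner and counter are not given in the sources used here. Counts on the annotated strand were used. The 4 totals of reads in no gene (unmapped 9.35% and 10.1%, multimapping 30.3% and 29.8%, outside genes 2.41% and 2.23%, ambiguous 0%) stayed out of library sizes. Of 1973 identifiers 1894 matched GENCODE M21 on GRCm38, and the others held 0 counts. Of the 1894, 869 had a hairpin in the RefSeq table.

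Pairs were fitted with edgeR 4.0.16, 1 row per pair and 4 columns (2 genes in 2 pups), offsets from TMM effective library sizes, the pup as a block, and Benjamini-Hochberg adjustment. The block pairs genes of the same animal and library. Binomial tests used SciPy 1.17.1 and folding energies ViennaRNA 2.7.2. Both tests were also run on simulated data. There most pairs or genes were equal, and the 2 libraries differed otherwise by counting error alone. These settings differ from the real data, so the runs do not show how often the tests err here. Alternatives used DESeq2 1.42.0 and limma 3.58.1 (pseudocount 1 CPM), other scalings, count minimums of 1 and 100, distances of 2 and 50 kb, strand ignored and hairpin length. Intervals are at 95%.

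The named genes were the members, the genes of both paralog clusters, other genes of the same seeds, the neighbours in level, the widest and narrowest clusters and the tissue markers. Runs named between these were chosen after their values were seen. The members and lists were chosen with earlier results of these data known. The p-values of pairs rest on the spread between 2 littermates, which edgeR combines with a spread estimated over all pairs (4.16 prior degrees of freedom). Those pairs share genes, and the size of the p-values depends on which pairs are included. For Mir17 over Mir19b-1 the edgeR adjusted p was 9.29e-07 in the main fit and 1.05e-176 with starts within 50 kb. The log2 ratio was 10.30 in both. The p-values between libraries measure counting error alone.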

Additional observations from a re-analysis of the deposited data

How the results depend on the processing

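The cluster's share of counts was 0.859% with all reads as the denominator. With each pup left out it ranged from 1.47% to 1.60%, and the fold of Mir17 over Mir19b-1, 1294 as the mean over the pups, ranged from 1166 to 1422. Without Mir19b-1, an alternative chosen after seeing the data, the fold of Mir17 over the lowest member was 292. At a minimum of 100 counts 6 of 6 pairs within the cluster passed, since the pairs with a Mir19 gene were no longer tested (12 pairs of both kinds had no value). In every other alternative run, 15 of 15 passed. Among 226 tested values of single pairs, 220 kept their direction and their side of the threshold, 2 lost it and 4 gained it. The 2 are Mir20a over Mir93, given above. The 4 are Mir19b-1 over Mir19b-2 with limma (adjusted p = 0.0145), no replicate block (0.0372), a minimum of 1 count (0.0312) and strand ignored (0.0498). The fit without the replicate block changed no other call. The 52 ratios from 1 pup alone, which have no test, kept their sign. Between the libraries 3 ratios near 0 changed sign without passing: Mir19a to -0.040 with total counts, and Mir18 to 0.024 and Mir92-1 to 0.034 with upper-quartile scaling. Leaving out a pup gives no test between libraries. Depth limits the Mir19 genes, with 18 to 120 counts a library.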

Other observations

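A detail of the guide arms was noticed after the values were seen. Of 1738 mature mouse miRNAs in the RefSeq table, 6 end in the last 8 bases of miR-17-5p, and their genes lie on 4 chromosomes. One of the 6, Mir7239 on chromosome 11, had 0 counts. The 5 detected genes were Mir17 and Mir20a (chromosome 14), Mir106a and Mir20b (X) and Mir93 (5). All 5 were called higher in pup 2 by the exact binomial test, with log2 ratios from 0.19 to 0.31, beside 21.3% of detected genes. The group was formed after these ratios were seen, so this is a description and tests nothing. They were called in 5 of 5 under total-count scaling (0.15 to 0.26) and upper-quartile scaling (0.23 to 0.35) too. Scaling shifts the ratios of all genes alike, so these are not separate results. Mir106b, which has the seed of Mir17 but another 3′ end, had a log2 ratio of -0.13. A part of the 3′ end in these ratios was not tested. The guide arms of the 5 differ by few substitutions, and whether the genes share reads was not tested.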
